A study of Mus musculus with 26 samples.

Results

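The calcium store of muscle was described by 10 of the 55341 genes listed in the count tables. The 10 genes are the SERCA calcium pumps Atp2a1, Atp2a2 and Atp2a3, the pump inhibitor Sln, the lumenal calcium-binding genes Casq1, Casq2, Srl and Hrc, the counter-ion channel gene Tmem38a and the triad anchor Trdn. They were chosen by name for their place in the sarcoplasmic reticulum, with earlier results of these data known, and each was found by its Ensembl identifier through GENCODE M21 (GRCm38).

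The study asked how SMYD3, a lysine methyltransferase, bears on the differentiation of C2C12 cells, mouse myoblasts that stop dividing and form myotubes once placed in differentiation medium. Polyadenylated RNA was sequenced in 26 libraries taken at induction (0 h, confluent cells) or after 24 h of differentiation. In the knockdown experiment (18 libraries) the cells had received a control siRNA (siCtrl) or an siRNA against Smyd3 (siSMYD3#1 or siSMYD3#2), transfected before induction and again at induction, with 3 libraries per siRNA and time. RNA of 2 libraries in each of these groups came from a NucleoSpin kit and that of the other from TRIzol, and the fits carry this as a covariate. The study's sample sheet gives the TRIzol cells a lower passage number than the NucleoSpin cells, so extraction method and passage cannot be told apart. In the overexpression experiment (8 libraries, all TRIzol) a control line with the empty retroviral vector pREV was compared with SMYD3 CL5, which expresses HA-FLAG-tagged SMYD3 from pREV, with 2 libraries per line and time. CL5 is 1 clone, so the transgene and the clone cannot be told apart. The methods call the libraries of a group biological replicates without saying how their cultures were separated, and p-values measure the spread between these libraries.

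In muscle, SERCA pumps return calcium from the cytosol to the sarcoplasmic reticulum, where buffers such as calsequestrin hold it until the ryanodine receptor releases it. Skeletal fast fibres chiefly use SERCA1 (Atp2a1) and calsequestrin 1 (Casq1). Heart uses SERCA2 (Atp2a2) and calsequestrin 2 (Casq2), and slow fibres use SERCA2 too. SERCA2 is also the housekeeping pump of the endoplasmic reticulum in most cells, and SERCA3 (Atp2a3) is best known from blood and epithelial cells.

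Library totals ran from 14315193 to 60398170 counts in the knockdown experiment and from 21124675 to 67853386 in the overexpression experiment. The myoblast markers Des, Cdh15, Cdh2, Myf5 and Myod1 were present in every group. Some of them varied widely between libraries of a group. In siCtrl cells at 0 h Des averaged 618 CPM with libraries from 67.3 to 944.9, and Myod1 ran from 6.41 to 31.4 CPM. Of the leukocyte markers, Adgre1 had 0 counts and Ptprc at most 6 counts in any library, while Cd68 reached 6.57 CPM. The adipocyte markers Adipoq, Plin1 and Cidec stayed at or below 0.126 CPM in any library. Of the endothelial markers, Pecam1 and Cdh5 stayed at or below 0.2761 CPM, and Kdr reached 2.37 CPM. Of the smooth muscle markers, Myh11 stayed at or below 0.2627 CPM, while Cnn1 reached 15.97 and Smtn 155.8 CPM. Of the cardiac markers, Myl7 and Tbx5 did not exceed 1 count in any library, while Nkx2-5 reached 30.9 CPM (TMM-scaled CPM, a count divided by its scaled library total, is the unit of every level here). Smyd3 itself was lower with siSMYD3#2 by 1.51 ± 0.17 on the log2 scale at 24 h (SE; adjusted p = 5.06e-05), but not detectably with siSMYD3#1 (log2 fold change -0.24 ± 0.16, adjusted p = 0.414) or in CL5 against vector (0.36 ± 0.27, adjusted p = 0.671). These values are counts of RNA alone. The study also followed Smyd3 by qPCR and SMYD3 protein by western blot after Smyd3 siRNA. For its clones it reports tagged SMYD3 by western blot and immunofluorescence. Adjusted p-values are Benjamini-Hochberg values over all genes tested, from edgeR's quasi-likelihood test with a threshold of 0.01, and errors of fold changes are standard errors.

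The siRNA strands decide which transcripts could be hit directly, so they are shown with the seed (bases 2 to 8 of the antisense strand) in capitals.
siSMYD3#1 antisense: gUUGGGGUcacagcuguga
siSMYD3#2 antisense: uCAAAUCUucaaucaggcu
siCtrl antisense: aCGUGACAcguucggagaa
Over their 19 bases the siSMYD3#1 and siSMYD3#2 strands matched protein-coding transcripts of 1 gene each, Smyd3, and no member. The 7 bases complementary to the seed of siSMYD3#1 were present in the longest coding transcript of 4 members, Atp2a1, Atp2a2, Atp2a3 and Srl, and in 24.1% of the 21901 genes searched. The 7 bases for siSMYD3#2 were present in Srl and Trdn and in 20.3% of genes. The 7 bases for siCtrl were present in Srl and in 6.5% of genes, and every siRNA difference is taken against siCtrl cells. Casq2, Hrc and Tmem38a held none of these matches. These matches describe letters in the annotation and no effect on any transcript was measured from them.

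Of the 10 members, 8 passed the low-count filter of the knockdown fit and 9 that of the overexpression fit. Sln, which encodes sarcolipin, an inhibitor of SERCA, had 0 counts in all 26 libraries. With a floor of 3 counts per library this allows at most 0.0514 to 0.212 CPM in the knockdown libraries and 0.046 to 0.138 CPM in the overexpression libraries (counting error only). Casq1 had between 0 and 15 counts in each knockdown library and was not tested there.

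Divided by exon length (CPM per kb), Atp2a2 had the highest level of the 10 genes in all 10 groups. In siCtrl cells at 0 h it stood at 71.3 CPM per kb, followed by Tmem38a at 6.68, Srl at 1.95 and Atp2a1 at 0.605, and the library ranges of neighbouring genes separated down to Srl, then overlapped between Atp2a1, Casq2 and Atp2a3. At 24 h the siCtrl mean of Atp2a2 was 51.1 CPM per kb, that of Tmem38a 37.0, Atp2a1 25.6, Srl 18.7, Casq2 12.3 and Hrc 7.26. From Tmem38a down to Hrc the ranges of each neighbouring pair overlapped across libraries. Within every library, however, Tmem38a exceeded Atp2a1 and Srl, both of these exceeded Casq2, and Casq2 exceeded Hrc. Only Atp2a1 and Srl changed order between libraries. Srl was higher in the TRIzol library (8.48 against 6.79 CPM per kb). Atp2a1 was higher in the NucleoSpin libraries (32.2 and 37.7 against 21.6 and 25.9). Trdn, Atp2a3 and Casq1 followed at 0.857, 0.599 and 0.274 CPM per kb. The exon length of Trdn, 9352 bases, joins the exons of all its annotated transcripts, so its level per kb is lower than that of any shorter transcript in use. Lengths of the other members are joined in the same way. For Atp2a2 this gives 6081 bases, against 4486 in its longest coding transcript, and for Atp2a1 3477 by either measure.

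**Figure D1:**
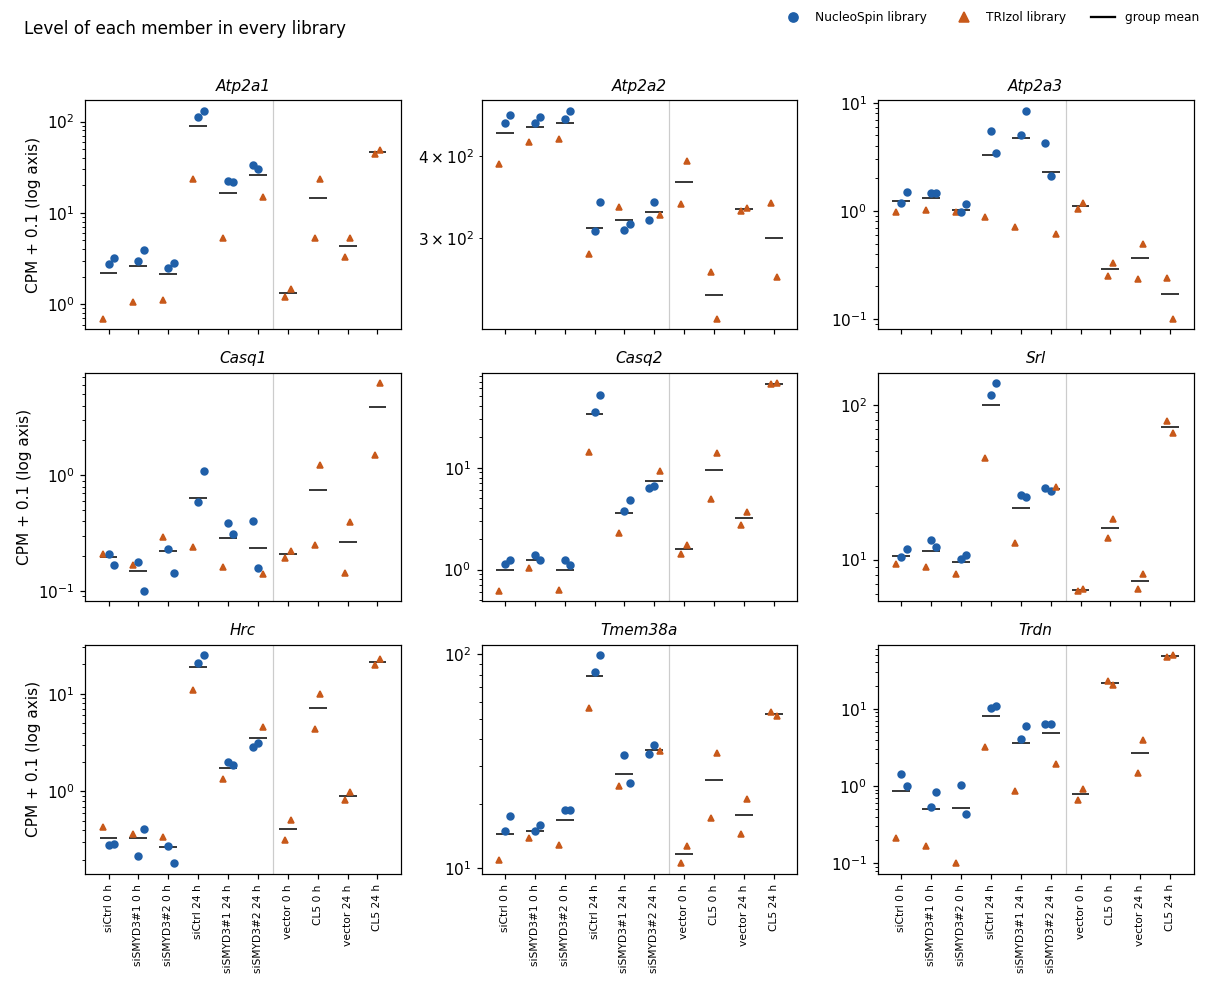
Level of 9 members in each of the 26 libraries (CPM plus 0.1 on a log axis; Sln, at 0 counts throughout, is not drawn). Circles are NucleoSpin libraries, triangles TRIzol libraries and lines group means; the vertical line parts the knockdown from the overexpression experiment. Atp2a2 varied within 225.5 to 469.6 CPM, while Atp2a1 ranged from 0.589 to 131.1 CPM.

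An entry in the RefSeq promoter table (GRCm38.p6) exists for 6 members, namely Atp2a1, Atp2a3, Casq1, Casq2, Hrc and Tmem38a, while Atp2a2, Srl, Trdn and Sln have none. The 250 bases before the RefSeq start of the 4 members with an entry that rose during differentiation of siCtrl cells are printed 5′ to 3′ on the gene's strand, with matches to CANNTG in capitals. CANNTG is the E-box, the site type that myogenic basic helix-loop-helix factors such as MyoD and myogenin bind. For Atp2a1 the 35 bases nearest to the RefSeq start lie inside the GENCODE gene and were left out. For Tmem38a the RefSeq start (72571823) lies upstream of the GENCODE start (72572055), and the bases between them were not searched. The same holds over shorter stretches for Casq1 and Hrc.
Atp2a1, chr7:126463109-126463323, minus strand: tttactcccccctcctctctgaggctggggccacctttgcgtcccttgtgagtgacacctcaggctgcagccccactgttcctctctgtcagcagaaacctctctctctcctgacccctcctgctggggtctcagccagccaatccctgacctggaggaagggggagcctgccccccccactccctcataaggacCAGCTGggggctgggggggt
Casq2, chr3:102086165-102086414, plus strand: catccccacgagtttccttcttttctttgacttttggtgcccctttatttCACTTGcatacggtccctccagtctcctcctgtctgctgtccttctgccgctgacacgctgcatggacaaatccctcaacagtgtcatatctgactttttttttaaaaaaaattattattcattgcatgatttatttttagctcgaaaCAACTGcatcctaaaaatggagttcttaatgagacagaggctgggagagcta
Hrc, chr7:45335019-45335268, plus strand: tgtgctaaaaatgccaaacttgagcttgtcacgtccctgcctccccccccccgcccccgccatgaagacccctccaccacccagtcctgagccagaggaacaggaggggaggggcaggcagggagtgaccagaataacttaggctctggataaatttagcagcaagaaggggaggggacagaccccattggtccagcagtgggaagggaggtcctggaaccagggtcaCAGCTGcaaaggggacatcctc
Tmem38a, chr8:72571573-72571822, plus strand: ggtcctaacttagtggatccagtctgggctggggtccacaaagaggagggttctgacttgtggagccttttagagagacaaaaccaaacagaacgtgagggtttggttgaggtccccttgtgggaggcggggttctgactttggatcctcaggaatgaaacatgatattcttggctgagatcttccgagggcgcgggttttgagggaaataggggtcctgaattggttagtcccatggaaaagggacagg
Searched on both strands, CANNTG occurred in this window in Atp2a1, Casq1, Casq2 and Hrc, not in Atp2a3 or Tmem38a, and in 66.2% of the 32851 promoters in the table. Its form CAGCTG, which is counted within CANNTG too, occurred in Atp2a1 (55 bases before the start), Hrc (22 bases before) and Casq1 (195 bases before) and in 13.0% of promoters. The letters CCCTCC and also GAGGGG are described for SMYD3 binding. The first occurred in all 6 members with an entry, from 1 match in Atp2a3, Casq2 and Tmem38a to 5 in Casq1, and in 35.2% of promoters. The other, GAGGGG, occurred in Atp2a1, Casq1 and Hrc and in 29.6% of promoters, each time in these members overlapping a CCCTCC match on the other strand, and 43.6% of promoters held either. A match is a description of letters and not a bound site.

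**Figure D2:**
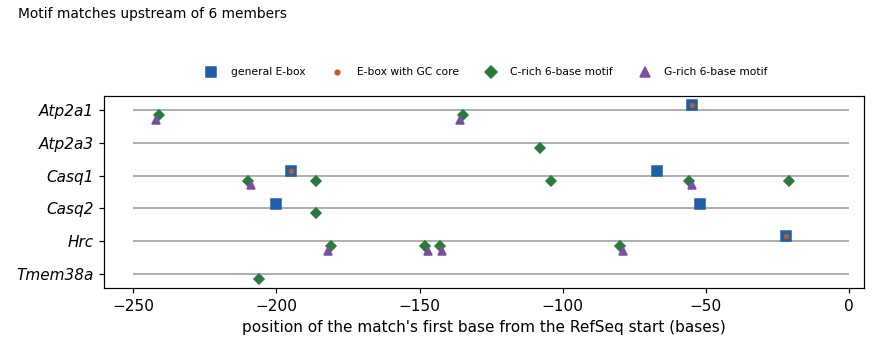
Position of motif matches in the 250 bases before the RefSeq start of 6 members (x axis: bases from the start, at 0). Squares mark CANNTG, dots its form CAGCTG diamonds CCCTCC and triangles GAGGGG; Atp2a1, Casq1, Casq2 and Hrc hold squares, and every line holds at least 1 diamond.

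Differentiation of siCtrl cells answers how the calcium store genes behave without knockdown. The data show a rise of 6 members between 0 h and 24 h (Atp2a1, Casq2, Srl, Hrc, Tmem38a and Trdn), while Atp2a2 fell and Atp2a3 did not pass the test. So 6 of the 8 members tested were higher and 1 lower, against 14.6% of the 15820 genes tested that were higher and 14.8% that were lower. The median log2 fold change of the tested members was 3.36 and that of all genes tested 0.03. In these bulk libraries, more cells in which a gene is on and more RNA per cell cannot be told apart.

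Atp2a1, the fast skeletal pump, stood at 0.589 CPM in the TRIzol library and at 2.63 and 3.09 CPM in the NucleoSpin libraries of siCtrl cells at 0 h. At 24 h the TRIzol library had 23.6 CPM and the NucleoSpin libraries 112.1 and 131.1 CPM. All 24 h libraries were above all 0 h libraries, and within each time the TRIzol library was the lowest. The fitted log2 fold change was 5.30 ± 0.24 (adjusted p = 7.80e-11).

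Atp2a2, the housekeeping and slow-muscle pump, moved the other way and by less. Its siCtrl levels were 388.9, 449.7 and 462.7 CPM at 0 h and 283.3, 307.9 and 340.3 CPM at 24 h. The groups did not overlap, and the log2 fold change was -0.48 ± 0.08 (adjusted p = 7.93e-05). Atp2a3, the third SERCA gene, had 0.884 to 1.41 CPM at 0 h. At 24 h the NucleoSpin libraries had 5.39 and 3.33 CPM and the TRIzol library 0.774 CPM, below every library at 0 h. Its log2 fold change of 1.28 ± 0.56 did not pass (adjusted p = 0.0787), whereas in the NucleoSpin libraries alone it was 1.77 (adjusted p = 0.00046).

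As a share of the summed level per kb of the 3 SERCA genes, Atp2a1 rose from 0.808% ± 0.476 (SD, n = 3) in siCtrl cells at 0 h to 30.4% ± 15.3 at 24 h. Atp2a2 made up 98.9% ± 0.511 and 68.9% ± 15.7 at these times. At 24 h the Atp2a1 share was 38.4% and 40.0% in the NucleoSpin libraries and 12.7% in the TRIzol library, all above the highest share at 0 h, 1.15%. With siSMYD3#1 the Atp2a1 share at 24 h was 8.08% ± 4.71 and with siSMYD3#2 it was 12.01% ± 4.13. The share with siSMYD3#1 stayed below that of every siCtrl library at 24 h, whereas that with siSMYD3#2 reached 15.4% and overlapped the TRIzol library of siCtrl. These shares are given as a description, with no test. Here and in the overexpression lines they rest on joined exon lengths. If a shorter Atp2a2 transcript is the one in use, the share of Atp2a1 is lower than given.

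**Figure D3:**
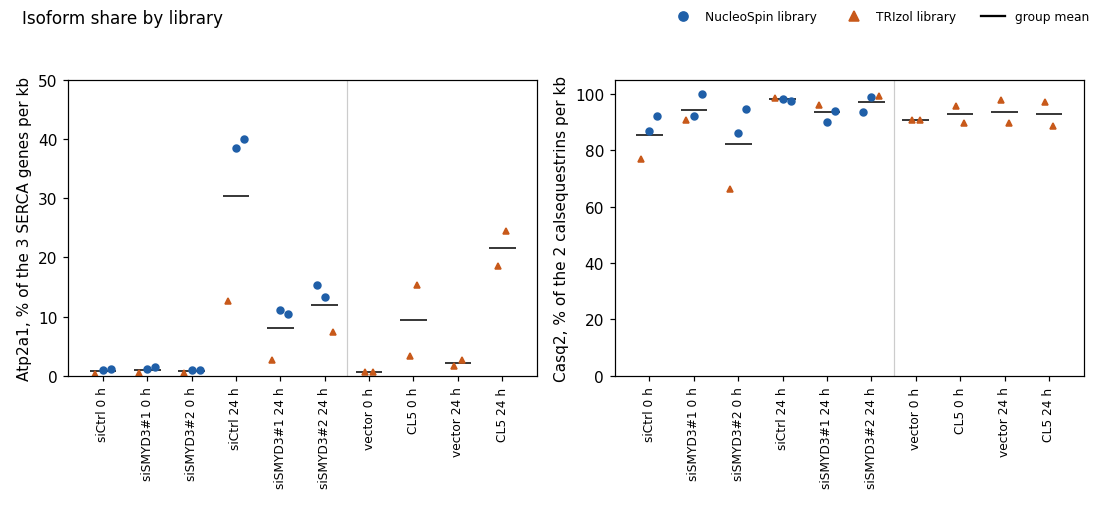
Share of Atp2a1 among the 3 SERCA genes (left) and of Casq2 among the 2 calsequestrin genes (right), in percent of their summed CPM per kb, by library. Circles are NucleoSpin libraries, triangles TRIzol libraries and lines group means; Atp2a1 stayed at or below 1.42% in all knockdown libraries at 0 h and reached 40.0% in siCtrl at 24 h, while Casq2 held at least 66.2% of calsequestrin in every library.

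The lumenal buffers rose together in siCtrl cells. Casq2 went from 0.515, 1.02 and 1.13 CPM at 0 h to 14.3, 34.9 and 51.4 CPM at 24 h. These groups were far apart, with a log2 fold change of 5.14 ± 0.36 (adjusted p = 3.16e-08). Hrc, the histidine-rich calcium-binding protein that also contacts triadin, had 0.183 to 0.331 CPM at 0 h, which came from 5 to 11 counts per library. At 24 h it had 10.9 CPM in the TRIzol library and 20.3 and 24.8 CPM in the NucleoSpin libraries, a log2 fold change of 6.33 ± 0.38 that was the largest among the tested members (adjusted p = 9.20e-10). Srl, which encodes sarcalumenin, was already measurable at 0 h with 9.24, 10.4 and 11.6 CPM and reached 45.2, 115.2 and 138.1 CPM at 24 h (log2 fold change 3.17 ± 0.24, adjusted p = 1.22e-07). Again the lowest 24 h value of Casq2, Hrc and Srl was that of the TRIzol library.

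Casq1, the other calsequestrin gene, remained near the limit of detection. The siCtrl libraries had 3, 3 and 4 counts at 0 h and 4, 11 and 15 counts at 24 h. In the fit of the NucleoSpin libraries alone, in which it passed the filter, the log2 fold change was 2.995 (adjusted p = 0.00255). With all 26 libraries in 1 fit, where it also passed the filter, it was 2.34 and was not called (adjusted p = 0.0731), and with 1 knockdown library left out it was called in 2 of the 16 refits in which it passed the filter (adjusted p from 0.00638 to 0.0953). Per kb Casq2 exceeded Casq1 in every group, and made up 98.0% ± 0.621 (SD, n = 3) of calsequestrin in siCtrl cells at 24 h.

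Tmem38a encodes TRIC-A, a potassium channel that balances charge when calcium leaves the store. It rose from 10.8, 14.8 and 17.4 CPM to 56.1, 82.6 and 99.0 CPM in siCtrl cells, with no overlap (log2 fold change 2.45 ± 0.15, adjusted p = 7.97e-10). Trdn encodes triadin, which anchors calsequestrin to the ryanodine receptor. Its siCtrl levels were 0.11, 0.892 and 1.32 CPM at 0 h and 3.10, 10.2 and 10.8 CPM at 24 h, and the lower value at each time came from TRIzol. The log2 fold change was 3.54 ± 0.37 (adjusted p = 8.17e-07).

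After either Smyd3 siRNA the same 6 members rose between 0 h and 24 h and Atp2a2 fell. Thus 6 members were higher and 1 lower with each siRNA. Of all genes tested, 12.7% were higher and 12.7% lower with siSMYD3#1, and 9.11% were higher and 9.88% lower with siSMYD3#2. The median log2 fold change of the tested members over time was 1.57 with siSMYD3#1 and 2.39 with siSMYD3#2. Atp2a1 rose by a log2 fold change of 2.67 ± 0.24 with siSMYD3#1 (adjusted p = 5.16e-07) and 3.83 ± 0.24 with siSMYD3#2 (adjusted p = 1.48e-08). Srl had the smallest rise with siSMYD3#1, 0.88 ± 0.24 (adjusted p = 0.0088), and lost its call with the replicate number as a block in place of extraction (adjusted p = 0.0121). The calls of Casq2 and Srl in this comparison were also lost when single libraries were left out, with adjusted p up to 0.0224 for Casq2 (without any siSMYD3#1 library at 0 h or either NucleoSpin library at 24 h) and up to 0.0396 for Srl (lost in 12 of the 18 refits). Atp2a2 fell by 0.47 ± 0.08 with siSMYD3#1 (adjusted p = 0.000158) and by 0.45 ± 0.08 with siSMYD3#2 (adjusted p = 0.000307) on the log2 scale. Atp2a3 did not pass with either siRNA (adjusted p = 0.0379 and 0.191), and in the NucleoSpin libraries alone it was higher with log2 fold changes of 2.24 (adjusted p = 8.15e-05) and 1.66 (adjusted p = 0.00258).

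The comparison of each Smyd3 siRNA with siCtrl at 24 h asks how the siRNAs bear on these genes during differentiation. In these counts Smyd3 RNA was measurably lower with siSMYD3#2 alone, and not detectably with siSMYD3#1 at either time (adjusted p = 0.414 at 24 h and 0.785 at 0 h). Protein was not measured in them. Of the 8 tested members, 6 were lower with siSMYD3#1 (Atp2a1, Casq2, Srl, Hrc, Tmem38a and Trdn), where 2.94% of all genes were lower, and none was higher, where 2.91% were. With siSMYD3#2, 5 members were lower (Atp2a1, Casq2, Srl, Hrc and Tmem38a), beside 2.04% of all genes, and none was higher, beside 1.66%. The median log2 fold change of the members was -1.84 with siSMYD3#1 and -1.32 with siSMYD3#2, and that of all genes 0.00 in both. These comparisons share their siCtrl libraries, so their likeness is not independent.

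With siSMYD3#1 at 24 h Atp2a1 had 5.24 CPM in the TRIzol library and 22.4 and 21.9 CPM in the NucleoSpin libraries. All 3 were below every siCtrl library, also the TRIzol one. The log2 fold change was -2.38 ± 0.20 (adjusted p = 1.06e-06). With siSMYD3#2 Atp2a1 had 14.9 CPM in the TRIzol library and 33.8 and 29.9 CPM in the NucleoSpin libraries, so the groups overlapped across extraction methods, because the TRIzol library of siCtrl had 23.6 CPM. Among the NucleoSpin libraries no overlap was left. With 1 TRIzol library per group, overlap cannot be judged there, and that of siSMYD3#2 was the lower. The log2 fold change was -1.51 ± 0.19 (adjusted p = 0.00017).

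Among the buffers Hrc had the largest fitted difference with either siRNA. It had 1.23, 1.89 and 1.77 CPM with siSMYD3#1 and 4.47, 2.73 and 3.06 CPM with siSMYD3#2, the TRIzol library first in each. All of these were below the lowest siCtrl library at 10.9 CPM, with log2 fold changes of -3.51 ± 0.31 (adjusted p = 1.06e-06) and -2.39 ± 0.29 (adjusted p = 9.17e-05). Casq2 had 2.21, 3.66 and 4.67 CPM with siSMYD3#1 and 9.18, 6.25 and 6.46 CPM with siSMYD3#2, in the same order. Every siSMYD3 library lay below the lowest siCtrl library at 14.3 CPM, and the log2 fold changes were -3.21 ± 0.32 (adjusted p = 8.99e-06) and -2.00 ± 0.31 (adjusted p = 0.000789).

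Srl had 12.8, 26.1 and 25.4 CPM with siSMYD3#1 and 29.1, 28.9 and 27.7 CPM with siSMYD3#2, below each siCtrl library. Its log2 fold changes were -2.18 ± 0.23 (adjusted p = 2.03e-05) and -1.68 ± 0.23 (adjusted p = 0.000419). Tmem38a had 24.0, 33.7 and 25.0 CPM with siSMYD3#1 and 35.3, 33.8 and 37.7 CPM with siSMYD3#2, again without overlap with siCtrl. Its log2 fold changes of -1.50 ± 0.14 (adjusted p = 2.14e-06) and -1.11 ± 0.14 (adjusted p = 0.000111) were the smallest among the members called with both siRNAs.

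Trdn and the remaining pumps stood apart from this set. Trdn had 0.766, 3.92 and 5.94 CPM with siSMYD3#1, overlapping the TRIzol library of siCtrl at 3.10 CPM. Its log2 fold change of -1.37 ± 0.33 passed narrowly (adjusted p = 0.00969) and was lost under RLE scaling (adjusted p = 0.0105), with the replicate number as a block (adjusted p = 0.015) and in 13 of the 18 refits that leave out 1 library. With siSMYD3#2 it had 1.84, 6.31 and 6.23 CPM, and -0.75 ± 0.32 did not pass (adjusted p = 0.166). The difference of Atp2a2 was 0.05 (95% interval -0.12 to 0.21) with siSMYD3#1 and 0.08 (95% interval -0.08 to 0.25) with siSMYD3#2. Atp2a3 had wider intervals, -0.67 to 1.52 with siSMYD3#1 and -1.68 to 0.63 with siSMYD3#2.

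**Figure D4:**
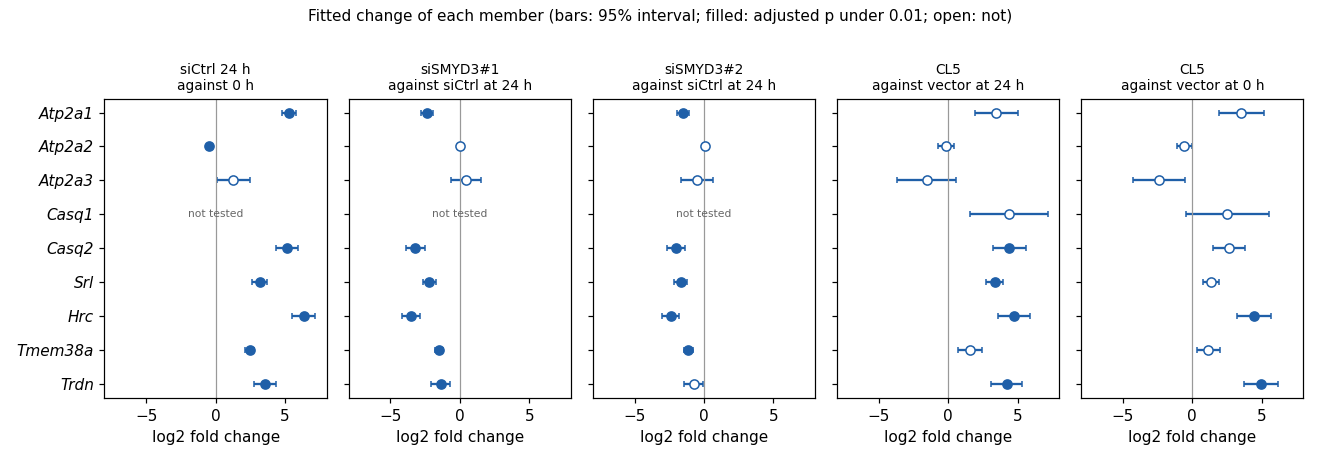
Fitted log2 fold change (x axis) of 9 members in 5 comparisons, with 95% intervals as bars; filled points passed an adjusted p of 0.01 and open points did not. The 6 members that rose in siCtrl cells lie left of 0 with siSMYD3#1 and siSMYD3#2 at 24 h and right of 0 in CL5, while Atp2a2 lies at 0.05 and 0.08 with the siRNAs.

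Extraction method, and the passage that goes with it, moved with several members, so the differences at 24 h were also taken within each method, as differences of mean log2 CPM without a test. TRIzol libraries were lower than NucleoSpin libraries of the same groups by 2.24 ± 0.26 on the log2 scale for Trdn (adjusted p = 7.91e-07), while the term for Casq2 was -0.67 ± 0.23 and did not pass (adjusted p = 0.0182). The term for Atp2a1 was -1.82 ± 0.15 (adjusted p = 2.12e-08), for Atp2a3 -1.62 ± 0.39 (adjusted p = 0.00181), for Srl -0.59 ± 0.15 (adjusted p = 0.00261) and for Tmem38a -0.38 ± 0.09 (adjusted p = 0.00118). For Hrc it was -0.14 ± 0.24 and for Atp2a2 -0.10 ± 0.05, neither of which passed. With siSMYD3#1, the Casq2 difference from siCtrl was -3.33 among NucleoSpin and -2.65 among TRIzol libraries. With siSMYD3#2 it was -2.72 among NucleoSpin and -0.63 between the TRIzol libraries. The siSMYD3#2 differences between the TRIzol libraries were also smaller for Atp2a1 (-0.66 against -1.93), Srl (-0.63 against -2.16), Hrc (-1.27 against -2.92) and Tmem38a (-0.67 against -1.34), with 1 TRIzol library per group. Without extraction in the fit, 4 members were called with siSMYD3#1 and 1, Hrc, with siSMYD3#2.

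**Figure D5:**
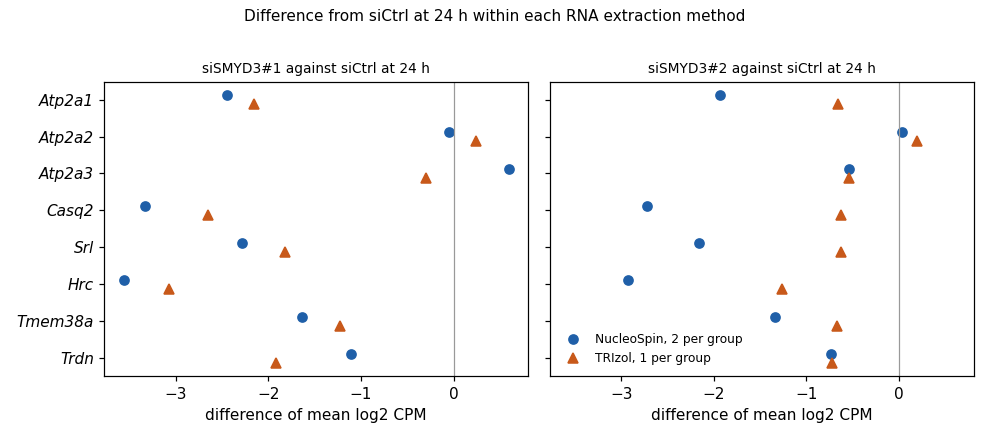
Difference of mean log2 CPM from siCtrl at 24 h (x axis) for the 8 tested members within NucleoSpin libraries (circles, 2 per group) and TRIzol libraries (triangles, 1 per group). With siSMYD3#2 the triangles of Casq2, Srl and Hrc sit closer to 0 (-0.63, -0.63 and -1.27) than the circles (-2.72, -2.16 and -2.92).

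At 0 h no member passed with either siRNA, beside 1.43% of all genes called in either direction with siSMYD3#1 and 0.531% with siSMYD3#2. Atp2a1 differed from siCtrl by 0.25 (95% interval -0.30 to 0.81) with siSMYD3#1 and by -0.04 (95% interval -0.60 to 0.52) with siSMYD3#2. The intervals of Hrc were wide at this time, -1.16 to 1.24 and -1.66 to 0.80, since its libraries held 2 to 11 counts. The largest differences at 0 h were those of Trdn, -0.91 ± 0.47 and -0.71 ± 0.44.

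Whether the siRNA differences changed with time was tested directly. With siSMYD3#1 the difference at 24 h minus that at 0 h was below 0 for 4 members, beside 0.171% of all genes. These were Casq2 (-3.57 ± 0.53, adjusted p = 0.0038), Atp2a1 (-2.63 ± 0.33, adjusted p = 0.000777), Srl (-2.29 ± 0.33, adjusted p = 0.00368) and Tmem38a (-1.55 ± 0.20, adjusted p = 0.000777). Hrc had -3.56 ± 0.70 and did not pass (adjusted p = 0.0211). With siSMYD3#2 no member passed, beside 0.019% of all genes, and Tmem38a came closest (-1.33 ± 0.20, adjusted p = 0.0106). In the NucleoSpin libraries alone 5 members passed with siSMYD3#1 and 4 with siSMYD3#2 (Atp2a1, Casq2, Srl and Tmem38a). Without extraction in the fit none passed with siSMYD3#1. The count with siSMYD3#1 fell to 2 without either NucleoSpin siCtrl library at 0 h, the TRIzol or 1 NucleoSpin siSMYD3#1 library at 0 h, or 1 NucleoSpin siSMYD3#1 library at 24 h. Of the 18 refits that leave out 1 library, the call of Casq2 was lost in 9 (adjusted p up to 0.0221). That of Srl was lost in 6 (adjusted p up to 0.0161), while Atp2a1 and Tmem38a kept theirs in all 18. That with siSMYD3#2 rose to 4 without its TRIzol library at 24 h, to 3 without the TRIzol siCtrl library at 24 h, and to 1 without the TRIzol siSMYD3#1 library at 0 h or either of 2 siSMYD3#1 libraries at 24 h.

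Set against each other at 24 h, siSMYD3#1 and siSMYD3#2 gave no member past the threshold, beside 3.36% of all genes. The fitted difference of siSMYD3#1 from siSMYD3#2 was below 0 for the 6 members that fell with siSMYD3#1, and the interval of Trdn (-1.31 to 0.09) included 0. The difference was -1.22 (95% interval -1.91 to -0.52, adjusted p = 0.0294) for Casq2, -1.12 (-1.79 to -0.46, adjusted p = 0.0346) for Hrc and -0.86 (-1.28 to -0.44, adjusted p = 0.0121) for Atp2a1. Without the TRIzol siCtrl library at 24 h, 2 members passed in this comparison (Atp2a1 and Casq2), without 1 of the NucleoSpin siSMYD3#2 libraries at 24 h 1 passed (Atp2a1), and among NucleoSpin libraries Atp2a1 passed with -0.52 (adjusted p = 0.0074).

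In the overexpression experiment the question was whether SMYD3 CL5 cells differ from vector cells in these genes. At 24 h, 4 of the 9 tested members were higher in CL5 (Casq2, Srl, Hrc and Trdn), beside 0.376% of the 17835 genes tested that were higher, and none was lower, beside 0.589%. At 0 h, 2 members were higher (Hrc and Trdn), beside 0.465% of genes, and none lower, beside 0.606%. The median log2 fold change of the members was 3.45 at 24 h and 2.52 at 0 h. These counts rested on few libraries. Leaving out any of the vector or CL5 libraries at 24 h left 0 calls at 24 h, leaving out either vector library at 0 h left 1, and leaving out either CL5 library at 0 h gave 6. At 0 h the count was 0 without either vector library at 0 h or either CL5 library at 24 h, 1 without either vector library at 24 h, and 6 or 4 without a CL5 library at 0 h. Where a group was left with 1 library, that library was assumed to vary like the other groups.

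At 0 h Trdn had the highest fitted difference between the lines. Vector cells had 0.565 and 0.803 CPM at 0 h and 1.35 and 3.82 CPM at 24 h, and CL5 cells had 22.7 and 20.5 CPM at 0 h and 47.0 and 49.7 CPM at 24 h. Every CL5 library was above every vector library. The log2 fold changes were 4.96 ± 0.52 at 0 h (adjusted p = 0.00431) and 4.21 ± 0.49 at 24 h (adjusted p = 0.00581).

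Hrc had 0.22 and 0.414 CPM in vector cells at 0 h against 4.29 and 9.71 CPM in CL5, and 0.709 and 0.874 CPM at 24 h against 19.6 and 22.4 CPM. The log2 fold changes were 4.43 ± 0.52 (adjusted p = 0.00641) and 4.72 ± 0.50 (adjusted p = 0.00454), with no overlap at either time. Casq2 reached 65.5 and 67.7 CPM in CL5 at 24 h, against 2.64 and 3.61 CPM in vector cells (log2 fold change 4.41 ± 0.51, adjusted p = 0.00587). At 0 h it had 4.85 and 13.8 CPM in CL5 and 1.32 and 1.66 CPM in vector cells, and did not pass (adjusted p = 0.0325). Srl had 78.1 and 66.0 CPM in CL5 against 6.32 and 7.92 CPM in vector cells at 24 h (log2 fold change 3.34 ± 0.26, adjusted p = 0.00138).

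Other members had separate groups but did not pass in CL5 at 24 h. Atp2a1 had 44.2 and 48.6 CPM in CL5 and 3.19 and 5.28 CPM in vector cells (log2 fold change 3.45 ± 0.66, adjusted p = 0.0383). At 0 h the CL5 libraries differed between themselves, with 5.22 and 23.5 CPM of Atp2a1, and the vector libraries had 1.10 and 1.39 CPM. Tmem38a had 53.5 and 51.1 CPM against 14.3 and 20.8 CPM (1.58 ± 0.36, adjusted p = 0.0689), and Casq1 had 79 and 134 counts against 2 and 19 counts (4.38 ± 1.19, adjusted p = 0.116). Atp2a2 differed by -0.14 at 24 h (95% interval -0.70 to 0.41) and by -0.57 at 0 h (95% interval -1.13 to -0.02, adjusted p = 0.257). Atp2a3 held 0 to 9 counts in each CL5 library and 6 to 45 in each vector library.

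As a share of the 3 SERCA genes per kb, Atp2a1 made up 21.5% ± 4.24 (SD, n = 2) in CL5 at 24 h and 2.18% ± 0.723 in vector cells. At 0 h it was 9.37% ± 8.56 in CL5, from 3.32% and 15.4% in its libraries, and 0.587% ± 0.033 in vector cells. Casq2 remained the main calsequestrin in both lines, at 92.9% ± 5.95 in CL5 and 93.8% ± 5.57 in vector cells at 24 h.

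Between 0 h and 24 h no member passed in vector cells or in CL5, beside 0.0% of genes called in either direction in each, and the change of the CL5 difference with time gave 0 members and 0.0% of genes. Of the 17835 genes tested, 1256 had an unadjusted p under 0.05 over time in vector cells and 1137 in CL5. In the test of the difference between them 312 did. Without any change a share of 0.05 of the genes would be expected there, so these counts name no gene as changed. The DESeq2 Wald test called 0, 2 and 0 members in these comparisons. Without a CL5 library at 0 h, 2 members or 1 passed over time in CL5. Srl rose in CL5 from 13.6 and 18.3 CPM to 78.1 and 66.0 CPM (2.18 ± 0.25, adjusted p = 0.159) and stayed at 6.15 and 6.33 against 6.32 and 7.92 CPM in vector cells (0.19 ± 0.24, adjusted p = 0.951). The difference between these changes was 1.99 ± 0.34 and did not pass (adjusted p = 1.00). Trdn moved in vector cells with 1.91 ± 0.49 (adjusted p = 0.44) and in CL5 with 1.16 ± 0.43 (adjusted p = 0.683).

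Markers of differentiation moved with these genes. Myogenin (Myog) averaged 180 CPM in siCtrl cells at 24 h, with libraries from 55.6 to 262.5. At the same time it averaged 14.2 with siSMYD3#1, 41.7 with siSMYD3#2, 7.15 in vector cells and 101 in CL5. At 0 h Myog averaged 48.9 CPM in CL5 and 0.409 in vector cells, and embryonic myosin (Myh3) 7.17 and 0.315. The CL5 libraries at 0 h differed between themselves, with 15.9 and 81.9 CPM of Myog and 3.41 and 10.9 CPM of Myh3. Of the 7 cardiac markers, Nkx2-5 averaged 24.0 CPM in CL5 at 0 h and 15.1 at 24 h, against 3.30 and 2.97 in vector cells, and Tnni3 2.54 and 1.73 against 0.197 and 0.226. Nppb averaged 0.88 CPM in CL5 and 1.68 in vector cells at 0 h, and 2.53 and 2.24 at 24 h. Myh6 averaged 0.496 CPM in CL5 and 0.0243 in vector cells at 0 h, and 0.727 and 0.0111 at 24 h. Myh6 and Nppa stayed below 1 CPM in every library, and Myl7 and Tbx5 had 0 counts in both lines. Among the myoblast markers at 0 h, Myf5 averaged 11.6 CPM in CL5 and 75.0 in vector cells, and Myod1 100 and 29.0. Their part in the members' differences was not tested.

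Other genes of calcium handling were taken from lists named for their role. Of 12 release channel and triad genes, 11 were tested in the knockdown fit, 6 rose in siCtrl cells (Cacna1s 6.15, Ryr1 4.67, Jsrp1 2.93, Ryr3 2.36, Jph2 1.79 and Stac3 1.503 on the log2 scale) and Itpr1 fell by 0.53, beside 14.6% of all genes higher and 14.8% lower. At 24 h 4 of them were lower with siSMYD3#1 and 5 with siSMYD3#2, beside 2.94% and 2.04% of all genes. Ryr1, the skeletal release channel, changed by -3.07 ± 0.21 and -2.00 ± 0.20. In CL5 at 24 h Ryr1 (log2 fold change 4.002 ± 0.38) and Stac3 (2.98 ± 0.33) were higher and Ryr3 lower (-4.52 ± 0.36), beside 0.376% of all genes higher and 0.589% lower. Ryr3 fell with both siRNAs as well, by 1.02 and 0.89 on the log2 scale.

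Of 9 calcium-binding genes of the general endoplasmic reticulum, 4 were lower (Hsp90b1, Hspa5, Calr and Canx) and 1 higher (Rcn3) in siCtrl cells at 24 h than at 0 h. Of all genes tested, 14.8% were lower and 14.6% higher in this comparison. With siSMYD3#1 at 24 h 6 of them were higher than in siCtrl, led by Rcn3 (0.71 ± 0.12) and Rcn1 (0.54 ± 0.07), and none lower, beside 2.91% of all genes higher and a median of 0.36 for the list and 0.00 for all genes. With siSMYD3#2 Rcn1 alone was called (0.33 ± 0.07, adjusted p = 0.00817), beside 1.66% of all genes higher and 2.04% lower. No gene of the list was called in CL5 against vector at 24 h, beside 0.376% of all genes higher and 0.589% lower. The same held at 0 h, beside 0.465% higher and 0.606% lower. The list was set by name, and where its proteins lie in these cells was not measured.

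Of 6 further pump regulators and counter-ion channel genes, Mrln, a micropeptide inhibitor of SERCA, and Tmem38b, which encodes TRIC-B, were tested, while Pln and Strit1 did not pass the low-count filter and Erln and Arln were not matched by symbol. Both rose in siCtrl cells, by log2 fold changes of 2.18 ± 0.32 and 1.18 ± 0.14, beside 14.6% of all genes higher. Tmem38b was lower with siSMYD3#1 at 24 h (-0.73 ± 0.14, adjusted p = 0.00179), beside 2.94% of all genes. Mrln did not pass (-1.24 ± 0.31, adjusted p = 0.0124). Of 12 genes for plasma membrane, Golgi and store-operated calcium transport, 3 of the 9 tested rose in siCtrl cells, beside 14.6% of all genes. These were Slc8a1 (1.27 ± 0.17), Atp2b4 (0.57 ± 0.11) and Stim2 (0.44 ± 0.08). With siSMYD3#1 at 24 h 2 were lower, Stim2 (-0.66 ± 0.08) and Atp2b1 (-0.48 ± 0.09), beside 2.94% of all genes.

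Exons of 3 members overlap genes on the opposite strand. The overlap covers 763 of the 3477 exon bases of Atp2a1 (with Rabep2), 83 of those of Atp2a2 (with Gm43361) and 156 of those of Casq1 (with Gm17224). The library kit marks strand, but whether reads were counted by strand is not given in the sources used here. Rabep2 changed by 0.27 ± 0.11 in siCtrl cells over time and by 0.01 ± 0.11 and -0.24 ± 0.11 with the siRNAs at 24 h, none of which passed, and Gm43361 and Gm17224 averaged at most 0.176 CPM in any group.

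Across the 18 knockdown libraries, levels of the rising members ran together, with Pearson r between 0.903 and 0.983 for pairs of Atp2a1, Casq2, Srl, Hrc and Tmem38a and between 0.786 (Hrc) and 0.943 (Atp2a1) for Trdn with these. Atp2a2 ran against all 6, with r from -0.684 (Trdn) to -0.874 (Hrc). These are descriptions over libraries that share groups and extraction. Taking genes whose mean was 100 counts or more, those most like Atp2a1 were Myog (r = 0.987), Myom2 and Mymx. Casq2 and Tmem38a were each among the other's 3 nearest genes (r = 0.983), and Casq2 was the nearest gene to Srl (r = 0.982). Tnni1, slow skeletal troponin I, was among the 3 nearest genes of Casq2, Srl and Tmem38a. Ryr1 was among those of Hrc (r = 0.982). The genes nearest to Trdn were Heca (r = 0.98), Arhgap18 and Gramd1b, of which Heca and Arhgap18 lie on chromosome 10 like Trdn itself. Those of Atp2a2 were Ccne1, Abcf2 and Tnfrsf12a, and those of Atp2a3 Slc6a9, Mettl22 and Dhrs7.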

How the data were processed

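The deposited files hold gene-level read counts of 26 C2C12 libraries, with no normalization. Per the labels and the methods, the authors prepared them from TruSeq Stranded mRNA libraries, checked reads with FastQC 0.11.5, aligned them to GRCm38 with HISAT2 2.1.0 and counted them with featureCounts (Subread 1.6.3). The annotation release and the strand and multi-mapping settings of the counting are not given in the sources used here. Of 55341 genes listed, 54495 matched GENCODE M21 by identifier, which gave symbols and exon lengths. No pair of libraries held identical values.

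Counts were tested with edgeR 4.0.16 (R 4.3.3) by its quasi-likelihood test after TMM scaling and edgeR's expression filter, over 18 knockdown libraries with 6 groups and extraction as a covariate, and over 8 overexpression libraries with 4 groups. P-values were adjusted by Benjamini-Hochberg over all genes tested, with a threshold of 0.01. Standard errors are the fold change divided by the root of F. Levels are TMM-scaled CPM, and log2 levels for correlations use a prior count of 2. Library totals limit precision, and the floor of 3 counts covers counting error only. The steps were tested on simulated data with known changes.

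Named were all 10 members whatever their values, Smyd3, genes of 4 calcium-handling lists, and for each member tested in the knockdown fit the 3 genes with the highest Pearson r among those with at least 100 counts on average. The members and lists were chosen with earlier results of these data known. Alternatives were DESeq2 1.42.0, RLE scaling, no filter, another threshold, all libraries in 1 fit, no extraction covariate, NucleoSpin libraries alone, a replicate block, and each library left out in turn.

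Replicate numbers come from the study's supplementary sheet and not from the labels. Deviations from the group means of same-numbered knockdown libraries correlated at r = 0.313 to 0.851 in 45 of 45 pairs. The TRIzol library carries the same number in every knockdown group, so these values cannot tell pairing from extraction. Among NucleoSpin libraries the median r was -0.003, and r was over 0.1 in 3 of 15 pairs of groups. In the overexpression experiment the median r was 0.142, and 4 of 6 pairs of groups were over 0.1. The main fits pair no libraries by number in either experiment, and the replicate block was run as an alternative.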

Additional observations from a re-analysis of the deposited data

Results flagged for a closer look

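For 4 members the difference between siSMYD3#1 and siCtrl was not the same at 24 h as at 0 h, by a test of the difference itself (the interaction term of edgeR's quasi-likelihood fit, adjusted over all genes). On the log2 scale the difference at 24 h minus that at 0 h was -2.63 for Atp2a1, -3.57 for Casq2, -2.29 for Srl and -1.55 for Tmem38a. At 0 h the fitted differences of these genes from siCtrl were 0.25, 0.35, 0.11 and 0.06. With 1 library left out, the call of Casq2 was lost in 9 of the 18 refits and that of Srl in 6. Those of Atp2a1 and Tmem38a were kept in all 18. The groups of 2 or 3 libraries were too small to look for single outlying libraries.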

How the results depend on the processing

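No member reversed its direction where it had been called. The count of members called moved by over 1.5 times in these cases. For siSMYD3#1 against siSMYD3#2 at 24 h (0 members) it was 2 with DESeq2, 4 without the low-count filter, 3 at an adjusted p under 0.05, 1 among NucleoSpin libraries and 0 to 2 with 1 library left out. For the change of the siSMYD3#2 difference with time (0) these values were 4, 4, 1, 4 and 0 to 4. For that of siSMYD3#1 (4) the count was 1 with all 26 libraries in 1 fit, 0 without extraction and 2 to 5 with 1 library left out. Without extraction, 2 rather than 7 members were called for siSMYD3#1 over time and 1 rather than 5 for siSMYD3#2 against siCtrl at 24 h. In CL5 against vector at 24 h (4) it was 7 with DESeq2, without the filter and with all libraries, and 0 to 6 with 1 left out. At 0 h (2) it was 5 with DESeq2, 7 without the filter, 5 at 0.05, 6 with all libraries and 0 to 6 with 1 left out. Over time in CL5 (0) it was 2, 4 without the filter, 2 with all libraries and 0 to 2 with 1 left out, and in vector cells (0) 2 without the filter. The cause was not tested.

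With the replicate block the counts were 7, 6 and 7 over time in siCtrl, siSMYD3#1 and siSMYD3#2 cells, and 5 and 5 for the siRNAs against siCtrl at 24 h. Srl over time with siSMYD3#1 and Trdn with siSMYD3#1 at 24 h lost their calls, and in CL5 at 24 h, where the numbers were not shown to pair libraries, Casq1 gained one (4.52, adjusted p = 0.00917). It changed no other call of a member.

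Low counts limit Casq1, Hrc and Trdn at 0 h, and 2 libraries per group limit the CL5 comparisons. With 1 TRIzol library per knockdown group, differences within TRIzol have no replicate check.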
